A study of Mus musculus with 6 samples.

Results

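The genes described are 10 factors that act on blood and lymph vessels: Vegfa, Vegfb, Vegfc, Vegfd, Angpt1, Angpt2, Angptl1, Angptl2, Angptl4 and Adm. They were taken by symbol from a table of 54100 mouse genes, and each symbol had 1 row. The table holds raw read counts from RNA of fibro-adipogenic progenitors (FAPs), the Pdgfra+ mesenchymal progenitors of skeletal muscle, from the plantaris of C57BL/6 mice. Sham muscle and overloaded muscle gave 3 libraries each, each made from a tube of 1000 sorted cells. The sources used here do not give how or how long the load was applied, the age of the mice, or whether each library is a separate animal, so p-values measure the spread between libraries alone, part of which may be technical.

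Vascular endothelial growth factors (VEGFs) are secreted ligands of the receptor tyrosine kinases encoded by Flt1, Kdr and Flt4, with neuropilins as coreceptors. VEGF-A drives the growth of blood vessels and VEGF-C and VEGF-D the growth of lymphatic vessels. Angiopoietins bind the receptor Tie2, encoded by Tek, and steady or loosen the vessel wall. Angiopoietin-like proteins share the fold of angiopoietins without binding Tie2, and adrenomedullin is a vasodilator peptide whose receptor is the protein CALCRL paired with a RAMP protein. Mesenchymal cells near vessels are a known source of several of these factors in muscle.

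In overloaded FAPs, Angptl4 rose 18.5-fold, while Angptl1 fell by 1.45 and Adm by 1.19 on the log2 scale. Vegfa was called 1.61-fold higher, a call lost in 5 of 16 alternative settings, among them leaving out overloaded library 3. The transcripts for the adrenomedullin receptor, Calcrl and Ramp2, fell with Adm. Vegfd, Angpt1 and Angptl2 were tested and not called, and Vegfb, Vegfc and Angpt2 had too few counts to test. A gene was called at a Benjamini-Hochberg adjusted p under 0.05 in edgeR's quasi-likelihood test over 7207 genes. Levels are in CPM, counts scaled to a library of 1e6 with TMM factors, which correct for composition, and changes are overloaded over sham. Of the 7 genes tested here, 2 were called higher (1 where the call of Vegfa was lost) and 2 lower, where 15% of all genes tested were higher and 14.3% lower (29.3% in either direction). For 6 of the 7 the groups were fully separate, as they were for 41.5% of all genes tested. The filter on low counts kept Angptl4 through the overloaded libraries, since its sham libraries held 10 counts in all.

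Vegfa and Adm are both textbook targets of the hypoxia-inducible factors (HIFs), and the bases before their transcription starts are shown as a description. Any bearing of these bases on the changes of Vegfa and Adm was not tested. The sequences are from RefSeq on GRCm38.p6, 5′ to 3′ in the direction of the gene, 250 bases ending just before the start. Capitals mark the HIF core motif, ACGTG or GCGTG, on either strand (CACGT or CACGC when read on the other strand). The Vegfa window is chr17:46032378-46032627, minus strand, and the Adm window is chr7:110627407-110627656, plus strand.
Vegfa: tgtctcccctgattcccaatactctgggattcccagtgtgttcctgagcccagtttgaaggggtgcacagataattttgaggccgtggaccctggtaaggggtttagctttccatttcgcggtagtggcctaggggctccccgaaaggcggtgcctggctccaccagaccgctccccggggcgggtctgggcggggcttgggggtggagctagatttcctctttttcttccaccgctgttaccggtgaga
Adm: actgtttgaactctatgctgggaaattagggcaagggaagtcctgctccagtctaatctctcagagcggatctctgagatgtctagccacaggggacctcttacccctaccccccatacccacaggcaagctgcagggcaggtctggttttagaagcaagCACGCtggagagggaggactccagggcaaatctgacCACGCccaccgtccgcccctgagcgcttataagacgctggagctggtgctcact

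The Adm window held 2 cores, which began 90 and 54 bases before the start, and the Vegfa window held none. A second RefSeq start of Vegfa, inside the gene, had 2 cores in its own window. Of the 7 genes with an entry in the promoter table (Vegfa, Vegfb, Vegfc, Vegfd, Angptl1, Angptl2 and Adm), 3 had a core in a window (Vegfa, Vegfb and Adm). Among all 32851 windows of this length, 38.6% held at least 1 core. The GC box, GGGCGG or CCGCCC on the other strand, occurred 2 times in the printed Vegfa window and 1 time in that of Adm, and 32.7% of all windows held it. A match of letters is a description of the sequence and not a binding site. Sequence beyond these 250 bases was not searched, so a window without a core does not show that the gene lacks one.

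Library totals were 500402 to 754456 counts for sham and 850857 to 1124210 for overloaded muscle. Libraries of a group differed by more than sampling noise (chi-square per degree of freedom 4.34 to 8.19), and all were counted separately. All 10 markers fixed for FAPs were present at testable levels, among them Pdgfra at 857 ± 143 CPM in sham against 594 ± 172 CPM in overloaded libraries (SD, n = 3 in each group). The groups did not overlap for Pdgfra, but it was not called (log2 change -0.53, SE 0.21, edgeR, adjusted p = 0.0624). In 6 of 16 alternatives Pdgfra was called lower (edgeR, DESeq2 or limma adjusted p 0.00902 to 0.327 over all 16). Of these 10 markers, 6 were called lower and 1 higher, where 14.3% of all genes tested were lower and 15% higher. Olfactory and vomeronasal receptor genes have no known role in FAPs. They took 1420, 1785 and 778 CPM of the library total in sham libraries 1 to 3. In overloaded libraries 1 to 3 they took 306, 1080 and 230 CPM, so the groups overlapped. Overloaded library 3 had the lowest share and the fewest genes detected (14757). As the share tended to be lower in overloaded libraries, a fit that adjusts for it also takes out part of any group difference. In bulk samples such as these, fewer cells of a type and less RNA per cell cannot be told apart.

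**Figure D1:**
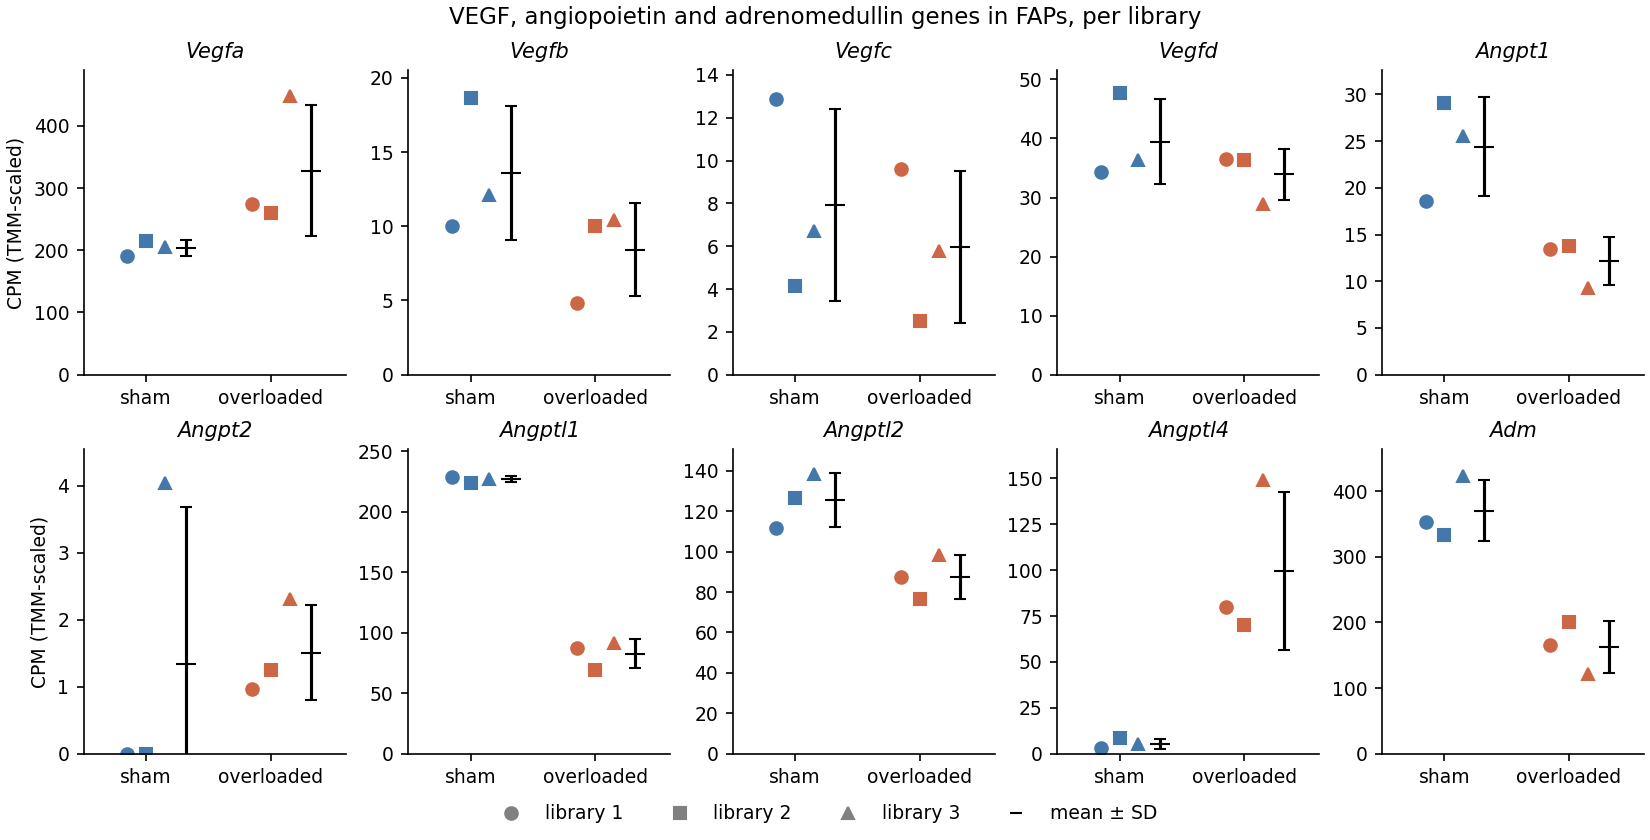
CPM of the 10 genes in each library (y axis, linear, from 0), with sham in blue and overloaded in orange, the marker shape giving the library number, and the bar the mean ± SD of 3 libraries, drawn from 0 where it would pass below. Angptl4 stood between 2.86 and 8.30 CPM in sham and between 70.2 and 149 CPM in overloaded libraries, and Angptl1 and Adm were lower in all 3 overloaded libraries than in any sham library.

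Vegfa (ENSMUSG00000023951, chromosome 17, 46016993 to 46032369, minus strand, GRCm38) encodes VEGF-A. Its level was 190, 216 and 205 CPM in sham libraries 1 to 3 and 275, 260 and 449 CPM in overloaded libraries 1 to 3. All overloaded libraries were above all sham libraries, and overloaded library 3 stood far above the other two of its group. The means were 204 ± 12.7 and 328 ± 105 CPM (SD, n = 3 libraries per group), which gave a log2 change of 0.69 (standard error, SE, 0.22; adjusted p = 0.0200 by edgeR). Without overloaded library 3 the log2 change was 0.42 and the gene was not called (edgeR, adjusted p = 0.211). It was also not called without sham library 1 (edgeR, adjusted p = 0.0555) or sham library 3 (0.0564), with the replicate number as a block on counts thinned to equal depth (0.0518), or with the share of olfactory and vomeronasal receptor reads as a covariate (log2 change 0.33, 0.561). Over 16 alternatives its adjusted p ran from 0.00666 to 0.561 and its log2 change stayed above 0.

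The other VEGF genes gave fewer reads. Vegfd (ENSMUSG00000031380, chromosome X, 164373378 to 164402650, plus strand), for a lymphatic growth factor, was at 34.4, 47.7 and 36.3 CPM in sham against 36.6, 36.4 and 28.9 CPM in overloaded libraries. The groups overlapped, and the log2 change of -0.20 (SE 0.32) was not called (edgeR, adjusted p = 0.698). Vegfb (ENSMUSG00000024962, chromosome 19, 6982473 to 6987651, minus strand), for a ligand of the Flt1 receptor, had 7, 9 and 9 counts in sham against 5, 8 and 9 in overloaded libraries. Scaled to library size, the ratio of its overloaded to its sham counts was 0.627, with an exact 95% interval of 0.337 to 1.16 that covers counting error alone. Vegfc (ENSMUSG00000031520, chromosome 8, 54077606 to 54187096, plus strand), for the main lymphatic growth factor, had 9, 2 and 5 counts in sham against 10, 2 and 5 in overloaded libraries, for a ratio of 0.757 (interval 0.359 to 1.6). For Vegfb and Vegfc a difference was not detectable at this depth. Reads that were not collapsed by molecular identifiers would make such intervals too narrow.

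Angpt1 (ENSMUSG00000022309, chromosome 15, 42424723 to 42676977, minus strand) encodes angiopoietin-1, the ligand that activates Tie2. It was at 18.6, 29.0 and 25.6 CPM in sham against 13.5, 13.8 and 9.25 CPM in overloaded libraries. Every overloaded library was below every sham library, on 8 to 19 counts per library. The log2 change of -0.98 (SE 0.43) was not called (edgeR, adjusted p = 0.0897), nor was it in any of the 13 alternatives that tested the gene, with adjusted p from 0.0677 to 0.453. Angpt2 (ENSMUSG00000031465, chromosome 8, 18690263 to 18741562, minus strand), for the ligand that can oppose angiopoietin-1, had 0, 0 and 3 counts in sham against 1, 1 and 2 in overloaded libraries. Its count ratio was 0.949 (interval 0.161 to 6.48), so no difference was detectable at this depth.

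Angptl4 (ENSMUSG00000002289, chromosome 17, 33773750 to 33781830, minus strand) encodes a secreted inhibitor of lipoprotein lipase, the enzyme that frees fatty acids from circulating triglycerides. It was at 2.86, 8.30 and 5.38 CPM in sham against 79.8, 70.2 and 149 CPM in overloaded libraries, on 2 to 4 and 56 to 129 counts. The lowest overloaded library was far above the highest sham library, and overloaded library 3 was again the highest. The means were 5.51 ± 2.72 and 99.8 ± 43.1 CPM (SD, n = 3 libraries per group), which gave a log2 change of 4.21 (SE 0.44, edgeR, adjusted p = 1.2e-08). The fold rests on 10 sham counts: the ratio of scaled counts was 19.1 (exact 95% interval 10.2 to 40.3). Angptl4 was called in all 16 alternatives, with log2 changes from 3.61, with the share of olfactory and vomeronasal receptor reads as a covariate, to 4.54, without sham library 2.

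Angptl1 (ENSMUSG00000033544, chromosome 1, 156838562 to 156861078, plus strand), for a secreted angiopoietin-like protein described as a brake on vessel growth, was at 229, 224 and 227 CPM in sham libraries. In overloaded libraries it was at 87.5, 69.0 and 91.4 CPM. The sham libraries were nearly equal and the overloaded ones all lay well below them. The means were 227 ± 2.60 and 82.6 ± 12.0 CPM (SD, n = 3 libraries per group), which gave a log2 change of -1.45 (SE 0.23, edgeR, adjusted p = 1.07e-05). It was called in all 16 alternatives, with log2 changes from -1.68 to -1.32. Angptl2 (ENSMUSG00000004105, chromosome 2, 33216069 to 33247717, plus strand), for a secreted protein linked to tissue inflammation, was at 112, 127 and 139 CPM in sham against 87.5, 76.5 and 98.3 CPM in overloaded libraries. Its groups did not overlap, but the log2 change of -0.52 (SE 0.23) was not called (edgeR, adjusted p = 0.0953), nor was it in any of 16 alternatives (0.0596 to 0.462).

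Adm (ENSMUSG00000030790, chromosome 7, 110627661 to 110629820, plus strand), the adrenomedullin gene, was at 354, 334 and 422 CPM in sham against 165, 201 and 121 CPM in overloaded libraries. All overloaded libraries were below all sham libraries, and overloaded library 3, the highest for Vegfa and Angptl4, was the lowest for Adm. The means were 370 ± 46.5 and 163 ± 39.7 CPM (SD, n = 3 libraries per group), which gave a log2 change of -1.19 (SE 0.22, edgeR, adjusted p = 0.000114). It was called in all 16 alternatives, with log2 changes from -1.35 to -1.0. Exons of Angpt1 and Angptl1 overlap a transcript on the opposite strand, and the sources used here do not give the strand setting of the counting. The overlapping genes, Gm17473 and Gm37802, had 2 and 3 counts over all 6 libraries, and no exon overlap was found for the other 8 genes.

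**Figure D2:**
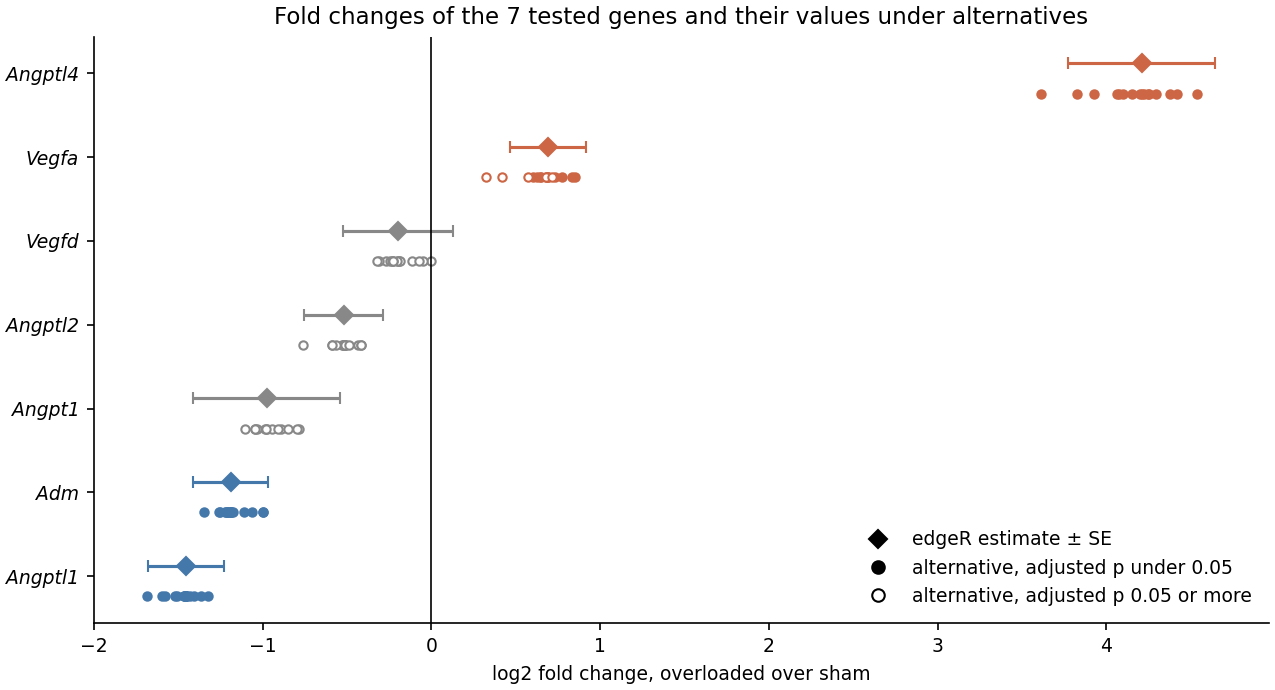
Log2 changes (x axis) of the 7 tested genes, with the edgeR estimate ± SE as a diamond and the values under up to 16 alternative settings as circles below it, filled where the adjusted p was under 0.05. Angptl4, Angptl1 and Adm have filled circles throughout, while Vegfa has 5 open ones and Vegfd, Angptl2 and Angpt1 have open ones alone.

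The receptors by which these factors act were described from lists of pathway genes. Every list count below stands beside the 15% of all genes tested that were called higher and the 14.3% called lower. For adrenomedullin, the list held 8 genes for receptor parts, the scavenger receptor Ackr3, peptide enzymes and the related ligand Adm2, and all 6 that could be tested fell (median log2 change -1.59, against -0.02 over all genes tested). Calcrl, the receptor shared by adrenomedullin and calcitonin gene-related peptide, was at 135, 139 and 120 CPM in sham against 62.5, 58.9 and 41.6 CPM in overloaded libraries (log2 change -1.26, SE 0.25, edgeR, adjusted p = 0.000239). With the receptor-read covariate, Calcrl was not called (edgeR, adjusted p = 0.0615; 5.17e-05 to 0.0615 over 16 alternatives). Ramp2, which makes Calcrl an adrenomedullin receptor, went from 249, 129 and 222 CPM to 32.7, 69.0 and 34.7 CPM (log2 change -2.16, SE 0.29, edgeR, adjusted p = 2.78e-06). The Ramp2 exons overlap those of Vps25, so its counts are uncertain to that extent.

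Ramp1, which turns Calcrl into the receptor for calcitonin gene-related peptide, went from 40.1, 102 and 45.7 CPM to 13.5, 5.02 and 5.78 CPM (log2 change -2.84, SE 0.44). Ackr3, a receptor that takes up adrenomedullin and Cxcl12, went from 462, 330 and 355 CPM to 116, 119 and 93.7 CPM (log2 change -1.80, SE 0.22). Outside the naming rule, and chosen once the values were known, the remaining 2 called genes were Mme, for a peptidase that degrades small peptides (log2 change -1.38, SE 0.30), and Pam, for the enzyme that amidates adrenomedullin (-0.74, SE 0.21). Pam was not called without sham library 2 (edgeR, adjusted p = 0.0605), without overloaded library 3 (0.0547) or with the receptor-read covariate (0.516; 0.00134 to 0.516 over 16 alternatives). For each of these 4 genes no overloaded library reached the lowest sham library. Ramp3 had 4 counts in sham against 1 in overloaded libraries and Adm2 had none, too few to test.

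**Figure D3:**
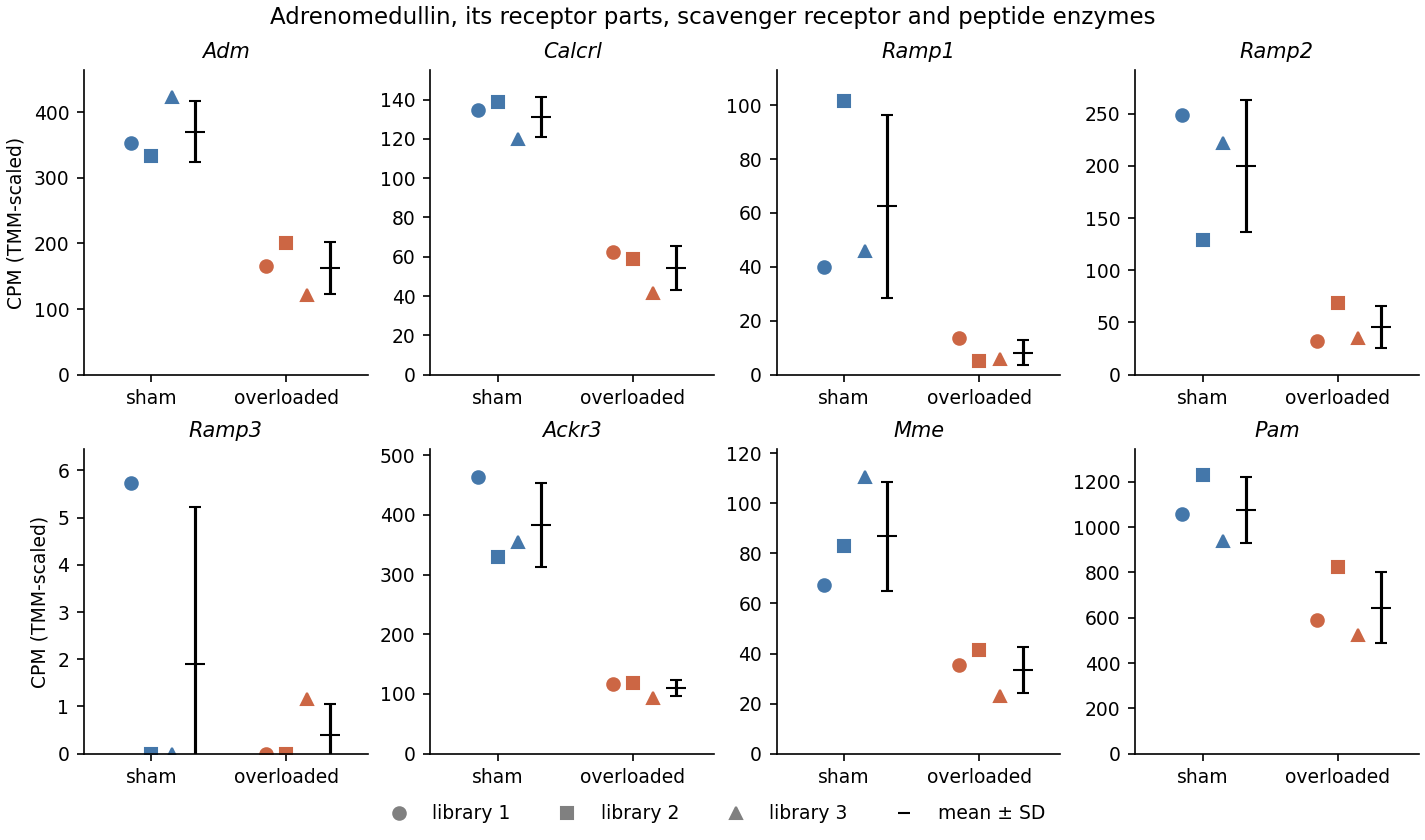
CPM of Adm and 7 genes of its receptors and peptide enzymes in each library (y axis, linear, from 0), drawn as in the plot of the 10 genes. Apart from Ramp3, which had 5 counts in all, every gene shown is lower in each overloaded library than in any sham library.

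Of 7 genes on the list of angiopoietin receptors and partners, 5 could be tested, of which 2 rose and 1 fell. Tek was at 127, 106 and 125 CPM in sham against 31.7, 23.8 and 25.4 CPM in overloaded libraries, with no overlap (log2 change -2.13, SE 0.27, edgeR, adjusted p = 5.59e-07). Tek is best known from blood endothelial cells. Of 14 markers of that cell type, none at 0 throughout, 12 had too few counts to test, among them Pecam1 with 2 to 7 counts in sham against 1 to 5 in overloaded libraries and Cdh5 with 0 to 6 and 1 to 3. The other two, Fabp4 and Aqp1, reached 40.1 and 34.4 CPM in sham library 1 and 17.6 and 43.9 CPM in overloaded library 2. The 14 markers summed to 127, 18.7 and 22.9 CPM in sham libraries 1 to 3 against 56.8, 105 and 18.5 CPM in overloaded libraries 1 to 3, and the groups overlapped. The part of endothelial RNA in the Tek values was not tested. Tie1, for the companion receptor, had 8 counts in sham, all in library 1, and 17 in overloaded libraries.

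Itga5 and Itgb1 encode the fibronectin receptor, an integrin that can also bind angiopoietins. Itga5 rose from 37.2, 29.0 and 32.3 CPM to 125, 96.6 and 208 CPM (log2 change 2.11, SE 0.30, edgeR, adjusted p = 2.47e-06), and its log2 change was 1.49 with the receptor-read covariate. Itgb1 rose by a log2 change of 0.68 (SE 0.20, edgeR, adjusted p = 0.0115), and was not called without overloaded library 3 or with the receptor-read covariate (edgeR, DESeq2 or limma adjusted p 0.00467 to 0.401 over 16 alternatives). Both were highest in overloaded library 3, as Vegfa and Angptl4 were.

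Of 5 VEGF receptors and coreceptors, 3 could be tested, and 1 rose. Nrp1, the coreceptor for VEGF-A and semaphorins, went from 70.2, 78.8 and 70.0 CPM to 129, 110 and 115 CPM (log2 change 0.70, SE 0.24, edgeR, adjusted p = 0.0257). Its call was lost in 7 of 16 alternatives (adjusted p 0.0214 to 0.219), among them without sham library 1, sham library 3 or overloaded library 1. Nrp2 was at 26.0 ± 11.6 and 22.0 ± 6.82 CPM (SD, n = 3 in each group) and was not called (edgeR, adjusted p = 0.664). Flt1 had 38, 4 and 2 counts in sham against 20, 18 and 5 in overloaded libraries, most of the sham counts lying in library 1, where the endothelial sum was highest (edgeR, adjusted p = 0.778). Kdr, the main signalling receptor for VEGF-A, had 9 and 12 counts, and Flt4, the receptor for VEGF-C and VEGF-D, had 7 counts in sham library 1 and 0 in the other 5 libraries. A count of 0 over the 3 overloaded libraries allows up to 1.11 CPM.

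**Figure D4:**
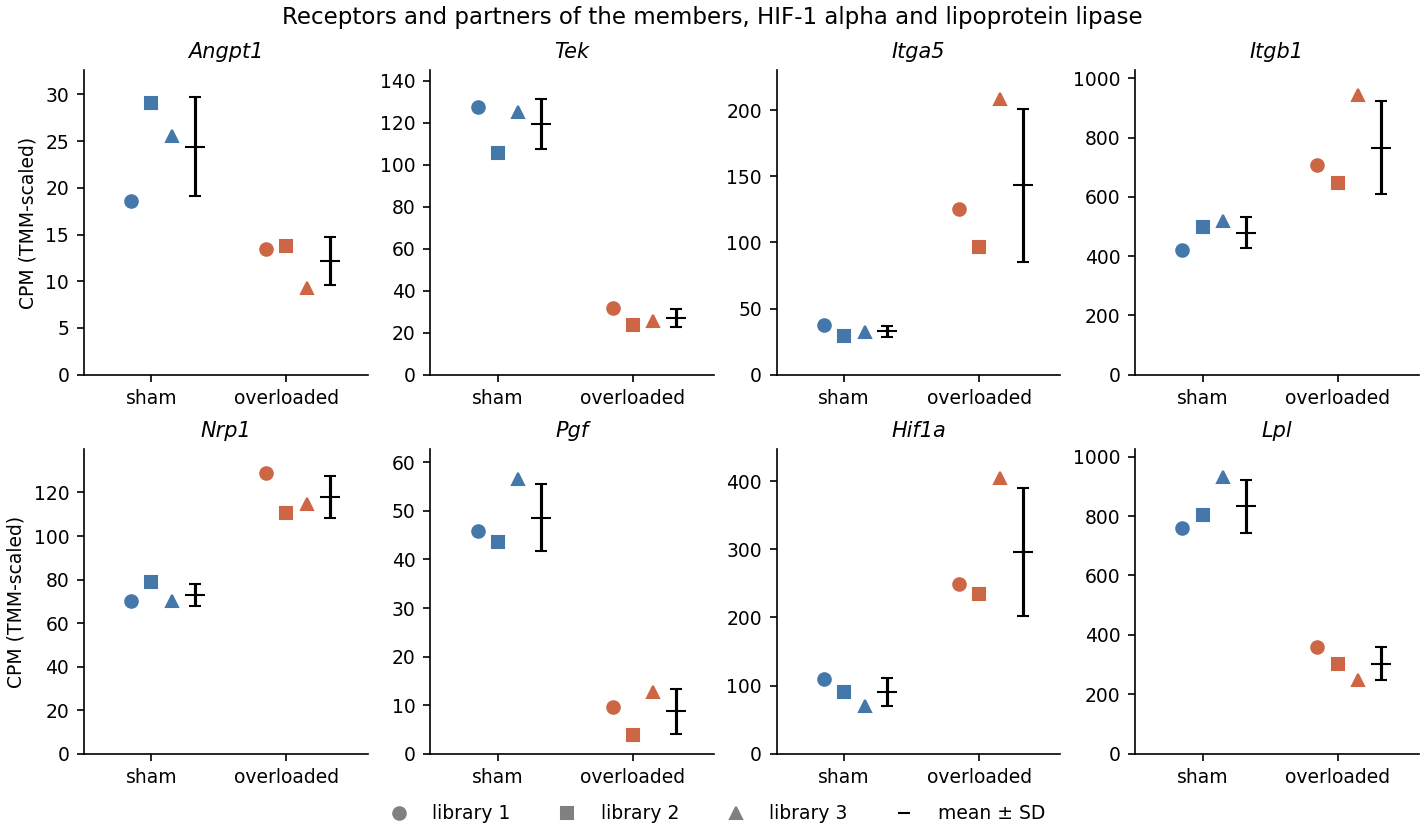
CPM of Angpt1 and of 7 receptor and pathway genes in each library (y axis, linear, from 0), drawn as in the plot of the 10 genes. Tek, Pgf and Lpl are lower and Itga5, Itgb1, Nrp1 and Hif1a higher in every overloaded library than in any sham library, with overloaded library 3 the highest for Itga5, Itgb1 and Hif1a.

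Other ligands of these families were also examined, from a list of 10, of which 3 could be tested. Pgf, for placental growth factor, a ligand of Flt1, fell from 45.8, 43.6 and 56.5 CPM to 9.62, 3.76 and 12.7 CPM (log2 change -2.45, SE 0.41, edgeR, adjusted p = 2.83e-05). Its log2 change was -3.08 on thinned counts and -3.43 with the receptor-read covariate. Angptl7, for a secreted angiopoietin-like protein, fell from 149 ± 14.1 to 48.8 ± 17.6 CPM (log2 change -1.61, SE 0.26). Pdgfa, for a ligand of the receptor Pdgfra, rose from 8 counts in sham, of which 0 were in library 3, to 89 in overloaded libraries (log2 change 2.94, SE 0.57), and its exons overlap a gene on the opposite strand. Its log2 change was 4.23 without sham library 1 and 2.30 without sham library 3. Of 9 genes for the processing of VEGF-C and VEGF-D, which are cleaved before they bind Flt4 fully, 6 could be tested and 2 rose, the proprotein convertase genes Pcsk5 (log2 change 1.15, SE 0.23) and Furin (0.88, SE 0.24). Pcsk5 was not called with the receptor-read covariate (edgeR, adjusted p = 0.133; 9.32e-06 to 0.133 over 16 alternatives).

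Vegfa, Angptl4 and Adm are all induced by low oxygen in many cells, through HIF transcription factors. Of 11 genes for HIF subunits and their regulators, 7 could be tested and 1 was called, where 29.3% of all genes tested were called. Hif1a, for the oxygen-regulated subunit of HIF-1, rose from 110, 91.3 and 70.0 CPM to 249, 235 and 405 CPM (log2 change 1.71, SE 0.25, edgeR, adjusted p = 4.47e-06). Epas1, for the related subunit HIF-2 alpha, was at 81.5 ± 15.6 and 48.7 ± 23.0 CPM (log2 change -0.74, SE 0.30, edgeR, adjusted p = 0.0662, and 0.00859 to 0.998 over 16 alternatives, of which 4 called it lower). Transcript levels do not report the amount of HIF protein, which is set largely by its breakdown.

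Of 31 other HIF target genes, 21 could be tested, of which 9 rose, 1 fell and 11 were not called (median log2 change 0.32, against -0.02 over all genes tested). With a minimum count of 30, which tested fewer genes, 5 rose. Among those that rose were Ldha, for lactate dehydrogenase (log2 change 1.74, SE 0.25), Slc2a1, for a glucose transporter (2.0, SE 0.35), and Aldoa, for a glycolytic aldolase (1.11, SE 0.20). The gene that fell, named once its value was known, was Mxi1 (log2 change -1.16, SE 0.36), a Myc antagonist. Mxi1 was not called without sham library 1 (edgeR, adjusted p = 0.0675), without overloaded library 1 (0.124) or with the receptor-read covariate (0.261; 0.00868 to 0.261 over 16 alternatives). Of the HIF targets among the 10 factors, Vegfa and Angptl4 were higher and Adm was lower. Aldoa and Ldha have processed copies elsewhere in the genome, and reads shared with those copies make their counts uncertain.

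Angptl4 is also a known target of fatty acid receptors (PPARs) and of the glucocorticoid receptor. Of 18 PPAR and fatty acid genes, 11 could be tested, of which 2 fell, a share near the 14.3% lower among all genes tested, and 9 were not called (median log2 change -0.24), and on thinned counts or with a minimum count of 30 there was 1 that fell. Its called genes were Lpl and Pdk4. Lpl, for the lipase that Angptl4 inhibits, went from 760, 805 and 932 CPM to 360, 301 and 248 CPM (log2 change -1.46, SE 0.20, edgeR, adjusted p = 2.45e-06). Pdk4, for a kinase that limits glucose oxidation, had 31 counts in sham against 2 in overloaded libraries, and passed the count filter through the sham libraries. Its ratio of scaled counts, overloaded over sham, was 0.0459 (exact 95% interval 0.00533 to 0.181). Of 12 glucocorticoid-responsive genes, all tested, 7 fell and 5 were not called (median log2 change -0.73). Tsc22d3, a classical glucocorticoid target, fell from 276 ± 60.7 to 31.5 ± 8.84 CPM and Dusp1, for a phosphatase that limits MAP kinases, from 568 ± 95.2 to 267 ± 32.1 CPM.

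Of 19 other genes listed as factors that promote vessel growth, 16 could be tested, and 10 rose and 2 fell (median log2 change 0.92). Lif, a cytokine of the interleukin 6 family, rose by a log2 change of 4.64 (SE 0.36), and Cxcl5, a neutrophil chemokine, by 7.11 (SE 0.40), or 6.46 with the receptor-read covariate. Cxcl5 passed the count filter through the overloaded libraries, since its sham libraries held 11 counts in all, against 2191, for a ratio of scaled counts of 142 (exact 95% interval 79.1 to 285). Lif and Cxcl5 were highest in overloaded library 3, at 564 and 1253 CPM. Those that fell, named once their values were known, were Fgf1, for an acidic fibroblast growth factor (log2 change -1.33, SE 0.34), and Plxdc2 (-0.81), for a membrane protein. Neither was called with the receptor-read covariate. Of 16 secreted inhibitors of vessel growth, 12 could be tested, and 3 rose and 6 fell (median log2 change -0.68). Thbs1, for thrombospondin-1, rose by a log2 change of 2.2 (SE 0.20), and Timp3, for a metalloproteinase inhibitor that also blocks VEGF-A binding to its receptor, fell by 1.33 on the log2 scale (SE 0.28). Without overloaded library 3 the inhibitors that fell numbered 3, and with the receptor-read covariate 2, Timp3 not being among the latter.

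For each of the 4 called factors, the 2 most similar genes were taken by Pearson's r of log2(CPM + 1) over the 6 libraries, among tested genes outside the 10. Such r values take in any difference between the groups as well as the spread within them, rest on 6 libraries, and are given without a test. For Vegfa they were Enoph1 (r = 0.990), itself not called (edgeR, adjusted p = 0.206), and the ribosomal protein gene Rpl27a (0.986), called with an edgeR adjusted p = 0.0417 and not called when any 1 of the sham libraries, or overloaded library 3, was left out (0.0247 to 0.507 over 16 alternatives). For Angptl4 they were the translation termination factor gene Gspt1 (0.997), not called with the receptor-read covariate, and the RNA methyltransferase gene Nsun2 (0.996). For Angptl1 they were Senp2 (0.998), which was at 56.1 ± 0.351 and 48.8 ± 1.06 CPM and was not called (edgeR, adjusted p = 0.643), and Slc49a4 (0.997), which was not called without sham library 3 (edgeR, adjusted p = 0.0633) or overloaded library 2 (0.0670; 0.00876 to 0.158 over 16 alternatives). For Adm they were AW112010 (0.999), which went from 206 ± 27.8 to 59.2 ± 22.3 CPM, and Fgf1 (0.999).

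Markers of other cell types were summed in each library as a measure of RNA from other cells. Leukocyte markers, of which 6 of 11 (Adgre1, Lyz2, C1qa, C1qb, Cd52 and S100a9) had 0 counts throughout, summed to 15.8 to 22.8 CPM in sham against 1.92 to 15.1 CPM in overloaded libraries. Pericyte and smooth muscle markers summed to 143 to 196 and 108 to 165 CPM, with Cspg4 the largest. Muscle fibre markers summed to 65.9 to 135 and 39.3 to 61.4 CPM, led by Ttn. Satellite cell markers summed to 45.6 to 63.0 and 95.2 to 137 CPM, nearly all of it Vcam1, which FAPs can also express, with Myod1 at 0 throughout and Pax7 at 6 counts in overloaded library 2 and 0 elsewhere. Lymphatic (4.04 to 22.9 and 5.02 to 6.73 CPM), Schwann cell (1.35 to 12.4 and 0 to 5.77), tendon (40.4 to 55.8 and 42.3 to 91.4) and red blood cell markers (1.43 to 131 and 2.51 to 27.8) overlapped between the groups. The FAP markers, summed in the same way, came to 42154 to 56619 CPM in sham against 31634 to 37523 CPM in overloaded libraries. An exact two-sided permutation test was run on each sum, where 3 against 3 libraries cannot go below p = 0.1, so no sum could pass 0.05. The FAP, leukocyte, satellite cell and muscle fibre sums were at that limit. The part of RNA from other cells in the values of the 10 factors was not tested.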

How the data were processed

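The authors deposited raw read counts per gene for 6 libraries, whole numbers that had not been normalised. The submitters' processing notes list DESeq2 1.28.1, featureCounts 2.0.1, HISAT2 2.2.1, Trim Galore 0.6.6 and the GRCm38 build. The sources used here do not give the annotation release, the strand setting or whether molecular identifiers were collapsed. Per the labels' protocols, libraries followed a published method that was cited and not described. CPM were not divided by gene length, so levels are not compared between genes.

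Counts were filtered with filterByExpr (minimum count 10, minimum total 15), scaled by TMM and tested with edgeR 4.0.16 in R 4.3.3, with no block, by the robust quasi-likelihood F test with Benjamini-Hochberg adjustment over 7207 genes. The SE is the log2 fold change divided by the square root of F. Marker sums were compared by an exact permutation test on log2(sum + 1). Positions and exon overlaps are from GENCODE M21 on GRCm38, which held all 54100 identifiers. Exons of Hif1a, Nrp1, Pdgfra and Rpl27a also overlap a gene on the same strand. Those of Furin, Slc2a1, Aldoa, Thbs1, Timp3, Dusp1, Vcam1, Ttn, Gspt1 and Nsun2 overlap a gene on the opposite strand. The effect of these overlaps on the counts was not tested. The symbol Aldoa had 2 rows, and the row with more counts was used. The script was tested on simulated data. Alternatives were other scalings, DESeq2 1.42.0, limma-voom (limma 3.58.1), other filters, thinning to the smallest library, the replicate block, the receptor-read covariate and leaving out each library.

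The 10 genes and the gene lists were chosen with earlier results of these data known. The genes named were the 10 factors, up to 4 called genes per list by adjusted p, fixed receptor and pathway genes, the most abundant marker of a list, and the 2 genes most similar to each called factor. Genes said to have been named once their values were known fall outside that rule, and 1 gene that the rule names is not reported here.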

Additional observations from a re-analysis of the deposited data

How the results depend on the processing

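Angptl4, Angptl1 and Adm were called in the same direction in all 16 alternatives, and Vegfd, Angpt1 and Angptl2 were called in none of those that tested them. With the receptor-read covariate 488 genes were higher and 381 lower, where 1084 and 1027 were without it. The receptor-read share tended to be lower in overloaded libraries, so a call lost with the covariate is not particular to that gene. With the covariate 1 of the 10 factors was higher, as with the replicate block on thinned counts (1). Leaving out each library in turn gave 1 to 2 factors higher, 853 to 1073 genes higher and 742 to 960 genes lower. Same-numbered libraries of the groups deviated together by a correlation of 0.00822 to 0.0149, too little to pair them. The replicate block gave 1043 higher and 993 lower genes, against 1084 and 1027 without it, and changed no call among the 10 factors.

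List counts moved as follows. With the covariate, 0 VEGF receptors, 1 angiopoietin partner and 1 processing gene were higher, and 0 HIF targets, 0 angiogenic factors and 2 inhibitors lower. With no filter, with thinning, or with thinning and block, 0 VEGF receptors were higher, and 1 PPAR gene was lower with thinning or a minimum count of 30. That minimum gave 0 other ligands and 5 HIF targets higher. Library size alone and limma-voom each gave 1 processing gene and 1 HIF regulator (Epas1) lower, as did the minimum of 30 for the former and the block for the latter. Leaving out single libraries gave 0 to 1 VEGF receptors and 1 to 3 angiopoietin partners higher, 0 to 1 processing genes, HIF regulators and HIF targets lower, 0 to 1 PPAR genes higher and 3 to 6 inhibitors lower. Of 37 called genes named beside the 10 factors, 13 lost the call at least once.

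Signs changed for uncalled genes: Flt1 to a log2 change of 0.27 with limma-voom and 0.61 with the covariate (-1.03 to 1.67 leaving out libraries), Nrp2 between -0.53 and 0.12 leaving out libraries, and Epas1 to 0.0023 with the covariate. The cause was not tested. Vegfb, Vegfc and Angpt2 had too few counts for a difference to be detectable.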
